A study of Homo sapiens with 78 samples.

Results

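The long noncoding RNA (lncRNA) genes NEAT1, MALAT1, NORAD, KCNQ1OT1, TUG1 and OIP5-AS1, were followed through single cell total RNA libraries of A375 and Jurkat cells. They were chosen by name, and for each well the estimated counts and the TPM (a unit corrected for transcript length and scaled to a common total per well) of all targets of a gene were summed. All 6 are among the 62744 genes and unmatched transcripts that the reads were assigned to. All but TUG1, which GENCODE v44 classes as protein coding, are among the 15108 lncRNA genes of these. A375 is a human line from melanoma, and Jurkat one from a T cell leukemia. Single cells of each line were sorted by FACS and processed with 1 of 2 reagent kits, the Pico v2 version of the SMARTer stranded kit (#634413) and the SMART-Seq Stranded Kit (#634444), with 21 A375 and 18 Jurkat wells per kit. No treatment is named for either line. A375 cells were grown in DMEM, labelled with an antibody against CD47 and sorted into PBS, and Jurkat cells were grown in RPMI, labelled with an antibody against CD81 and sorted into lysis solution. The cell line, the medium, the antibody and the sort buffer cannot be told apart in any comparison between A375 and Jurkat. The labels name no separate cultures, so each p-value measures the spread between wells, which may be technical in part.

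Long noncoding RNAs act as RNA, without a protein product. NEAT1 and MALAT1 lie next to each other on chromosome 11: the long form of NEAT1 is the scaffold of paraspeckles, nuclear bodies that hold RNA binding proteins, and MALAT1 collects in nuclear speckles, where splicing factors are stored. KCNQ1OT1 is an unspliced, imprinted transcript that runs antisense through KCNQ1 and silences neighbouring genes on the paternal chromosome. NORAD binds Pumilio proteins, mostly in the cytoplasm. TUG1 and OIP5-AS1 are spliced, and OIP5-AS1, the human counterpart of cyrano, carries a site for the microRNA miR-7. Counts per well say nothing of where in the cell an RNA was, so the label nuclear could not be checked, and by their known biology it fits NORAD, TUG1 and OIP5-AS1 only in part. In the counts, only MALAT1 and NEAT1 were abundant, and NEAT1 only in A375.

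In GRCh38, NEAT1 (ENSG00000245532) lies at chr11:65422774-65445540 on the plus strand, and MALAT1 (ENSG00000251562) starts 52100 bases further on, at chr11:65497640-65508073 on the same strand. KCNQ1OT1 (ENSG00000269821) lies at chr11:2597308-2700003 on the minus strand, NORAD (ENSG00000260032) at chr20:36045618-36051018 on the minus strand, TUG1 (ENSG00000253352) at chr22:30969245-30979395 on the plus strand and OIP5-AS1 (ENSG00000247556) at chr15:41283958-41322392 on the plus strand. The longest targets were 91667 bases for KCNQ1OT1, 22743 for NEAT1, 8829 for OIP5-AS1, 8708 for MALAT1, 5673 for TUG1 and 5339 for NORAD. NORAD and KCNQ1OT1 had 1 target each, NEAT1 5, TUG1 9, OIP5-AS1 10 and MALAT1 16.

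The long form of NEAT1 and MALAT1 share more than their neighbourhood: RNase P cuts their 3′ ends beside a tRNA-like fold, so neither ends in an ordinary poly(A) tail, and a total RNA method reads them without depending on one. The short form of NEAT1 ends at an ordinary poly(A) site. The next sequences show the exonic 3′ end of the long NEAT1 transcript (chr11:65445424-65445540, GRCh38, plus strand) and the matching region of MALAT1 (chr11:65506005-65506121, plus strand), with the run of 16 bases that both share in capitals.
NEAT1: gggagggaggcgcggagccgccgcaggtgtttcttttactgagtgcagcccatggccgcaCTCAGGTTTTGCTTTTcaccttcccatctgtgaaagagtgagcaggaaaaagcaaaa
MALAT1: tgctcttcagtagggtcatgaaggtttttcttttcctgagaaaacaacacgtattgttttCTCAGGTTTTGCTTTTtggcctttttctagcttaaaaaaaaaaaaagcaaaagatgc
The run ended 41 bases before the annotated 3′ end of NEAT1. Among the transcripts of GENCODE v44, only those of NEAT1 and MALAT1 themselves hold it. Over the 117 bases shown, 42 positions, or 35.9%, carried the same base at the same offset. The windows were placed with the shared run at the same offset, so its 16 bases are among these 42 positions by design. The 35.9% is thus not a separate measure of likeness, and likeness outside the run was not tested.

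NORAD is known for its repeated Pumilio sites, of which the motif TGTANATA is the core. An exonic stretch with 3 matches close together (chr20:36049493-36049730, GRCh38, minus strand) is shown with these matches in capitals.
NORAD: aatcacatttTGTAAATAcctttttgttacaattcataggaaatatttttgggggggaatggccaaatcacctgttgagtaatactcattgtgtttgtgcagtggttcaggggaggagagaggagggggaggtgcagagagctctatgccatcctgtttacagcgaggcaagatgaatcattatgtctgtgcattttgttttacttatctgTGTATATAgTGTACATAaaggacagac
The transcript NORAD-201, 5401 bases long in GENCODE v44, held 15 matches on its own strand, or 2.78 per kb. Of the 125660 transcripts of at least 1000 bases, 0.0231% had as high a density, and of the 5883 transcripts of 5000 to 6000 bases, 46% held any match. The other 5 genes had 6 matches in NEAT1, 9 in KCNQ1OT1, 2 in TUG1, 1 in OIP5-AS1 and 0 in MALAT1.

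OIP5-AS1 is shown with its miR-7 site in an exon (chr15:41300570-41300599, GRCh38, plus strand), where the capitals mark the match to the microRNA seed, and with the mature microRNA from the RefSeq table of GRCh38.p14 (the locus at chr9:83969811-83969834, minus strand), where they mark the seed, bases 2 to 8.
OIP5-AS1: taagaacaacaaaatcaccaatGTCTTCCa
hsa-miR-7-5p: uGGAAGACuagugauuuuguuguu
Beside 8 paired bases on the seed side, this site had a run of 14 further paired bases upstream, against 1 and 2 at the other 2 seed matches of OIP5-AS1-201. Of the 2032 transcripts of 8000 to 10000 bases, 4.72% held at least 3 seed matches. A match of letters is a description and not a measured site, since small RNAs were not measured here.

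Depth ranged from 909 to 2567265 estimated counts over the 78 wells, and the median well had 813697. Of the 42 A375 wells, 9 had under 203424 counts, 25% of that median, and 6 of these held only 909 to 2373 counts. A further limit of 50% of counts on protein coding genes was added after seeing the data, and 15 A375 wells per kit and all 36 Jurkat wells were above both limits. These are called the wells above both limits. Shares and fits are given for all wells first, and any result from fewer wells names them. A well was placed above the other line only if its share passed its own floor, the share that 3 counts would have in it, and below only if that floor also lay under every well of the other line. The marker genes of A375 held more counts than those of Jurkat in 19 of 21 A375 wells with kit #634413 and 17 of 21 with kit #634444, and those of Jurkat held more in 18 of 18 Jurkat wells with each kit. In the remaining 6 A375 wells, those of 909 to 2373 counts, both lists were at 0.

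The 6 genes were read at very different levels, and MALAT1 was the highest of them in every group. Where 2 values stand side by side below, the first is for kit #634413 and the second for kit #634444. As a share of all estimated counts of a well, MALAT1 was the first gene of all in A375 with both kits, and the second and the third in Jurkat, by its mean over wells with at least 25% of the median total. NEAT1 was the seventh and the fifth gene in A375, and ranked 3908 and 1752 in Jurkat. NORAD ranked 95 and 118 in A375 and 471 and 444 in Jurkat. KCNQ1OT1 ranked 197 and 120 in A375 and 2125 and 1771 in Jurkat, and TUG1 and OIP5-AS1 lay between ranks 1135 and 2459 in the 4 groups. A share of counts favours long transcripts. By mean TPM in the same wells, MALAT1 ranked 7 and 7 of all genes in A375 and NEAT1 202 and 204. NORAD then ranked 927 and 961 there, and KCNQ1OT1 13045 and 12078. In Jurkat, MALAT1 ranked 66 and 56 by TPM and NEAT1 6080 and 2765.

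NEAT1, the paraspeckle scaffold, was the member that separated the lines most. With kit #634413, the share of NEAT1 in A375 had a lowest value of 0%, a median of 0.694% and a highest value of 1.72%, and in Jurkat 0%, 0.00328% and 0.0235%. With kit #634444, the values in A375 were 0%, 0.808% and 1.93%, and in Jurkat 0.000190%, 0.00807% and 0.0396%. All but a few A375 wells were thus high and all Jurkat wells low: 18 of 21 and 16 of 21 A375 wells lay above every Jurkat well of their kit. The A375 wells at or below the floor of 3 counts were 2 with kit #634413 and 4 with kit #634444. With kit #634413, the mean NEAT1 share of 0.699% ± 0.503 (SD, n = 21) in A375 stood against 0.00492% ± 0.00597 (SD, n = 18) in Jurkat, and with kit #634444 0.682% ± 0.589 stood against 0.0103% ± 0.0108. In counts, the median A375 well held 4863 and 4446 NEAT1 counts, and the median Jurkat well 37 and 56. One Jurkat well had 0 counts of NEAT1 among 933494, which allows a share of up to 0.000321%. Such floors cover only the error of counting, since reads made by PCR do not each stand for a molecule.

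MALAT1, the nuclear speckle RNA, was high in both lines and higher in A375. Its share in A375 had a lowest value of 0%, a median of 2.89% and a highest value of 4.37% with kit #634413, and 0%, 2.18% and 4.51% with kit #634444. Jurkat wells ran from 0.165% over 0.486% to 1.63% (kit #634413) and from 0.147% over 0.576% to 1.75% (kit #634444). The groups overlapped, with 15 and 13 of 21 A375 wells above every Jurkat well and 1 and 1 below every Jurkat well. A further 2 and 3 A375 wells had 0 counts at a depth too low to be placed. The mean was 2.41% ± 1.43 (SD, n = 21) against 0.579% ± 0.357 (SD, n = 18) with kit #634413, and 1.95% ± 1.48 against 0.612% ± 0.376 with kit #634444. MALAT1 alone held 37.1% ± 15.2 and 28.8% ± 16.6 of all lncRNA counts of an A375 well, and 25.2% ± 9.61 and 24.2% ± 10.9 of those of a Jurkat well.

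KCNQ1OT1, the imprinted antisense transcript, held little in Jurkat and more in A375. Its share with kit #634413 was 0% at the lowest, 0.0308% at the median and 0.108% at the highest in A375, and 0.000221%, 0.00501% and 0.0385% in Jurkat. With kit #634444, it was 0%, 0.0455% and 2.02% in A375, and 0.00224%, 0.00648% and 0.0276% in Jurkat. The highest value came from a well of 1395 counts, of which 28.2 were on KCNQ1OT1, and in wells above both limits the highest A375 value with that kit was 0.117%. The lines overlapped, with 8 and 15 of 21 A375 wells above every Jurkat well. The median A375 well held 176 and 224 KCNQ1OT1 counts on a target of 91667 bases.

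NORAD, the Pumilio binding RNA, was the most even of the group from well to well in Jurkat with kit #634444. Its share in A375 was 0% at the lowest, 0.0576% at the median and 0.117% at the highest with kit #634413, and 0%, 0.0541% and 0.124% with kit #634444. In Jurkat, it was 0.00645%, 0.0242% and 0.0599% with kit #634413 and 0.0147%, 0.0248% and 0.0421% with kit #634444. NORAD had A375 wells on both sides of Jurkat: 9 and 13 of 21 lay above every Jurkat well, and 4 and 2 below every one, while 2 and 4 wells with 0 counts were too shallow to be placed. In wells above both limits, 0 lay below. The coefficient of variation of NORAD in Jurkat was 57.9% with kit #634413 and 30.7% with kit #634444, the lowest of the 6 genes with each kit. In A375, it was 74.6% and 74.5% over all wells, which include wells at 0. In A375 wells above both limits, it was 32.7% and 34%, so A375 was not clearly less even than Jurkat there.

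TUG1 and OIP5-AS1 were low in both lines, near 0.01% of counts. The median share of TUG1 was 0.0101% and 0.0112% in A375 against 0.0116% and 0.0101% in Jurkat. Single wells of TUG1 reached 0.0192% and 0.0216% in A375 and 0.0394% and 0.0265% in Jurkat. For OIP5-AS1, the medians were 0.00766% and 0.00826% in A375 and 0.00657% and 0.0135% in Jurkat, and the highest wells lay between 0.0191% and 0.0254%. No A375 well lay above every Jurkat well for either gene, and in wells above both limits 0 lay below every one. Over all wells, 4 A375 wells lay below for TUG1 with kit #634413, and the other wells with a lower share were too shallow to be placed.

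**Figure D1:**
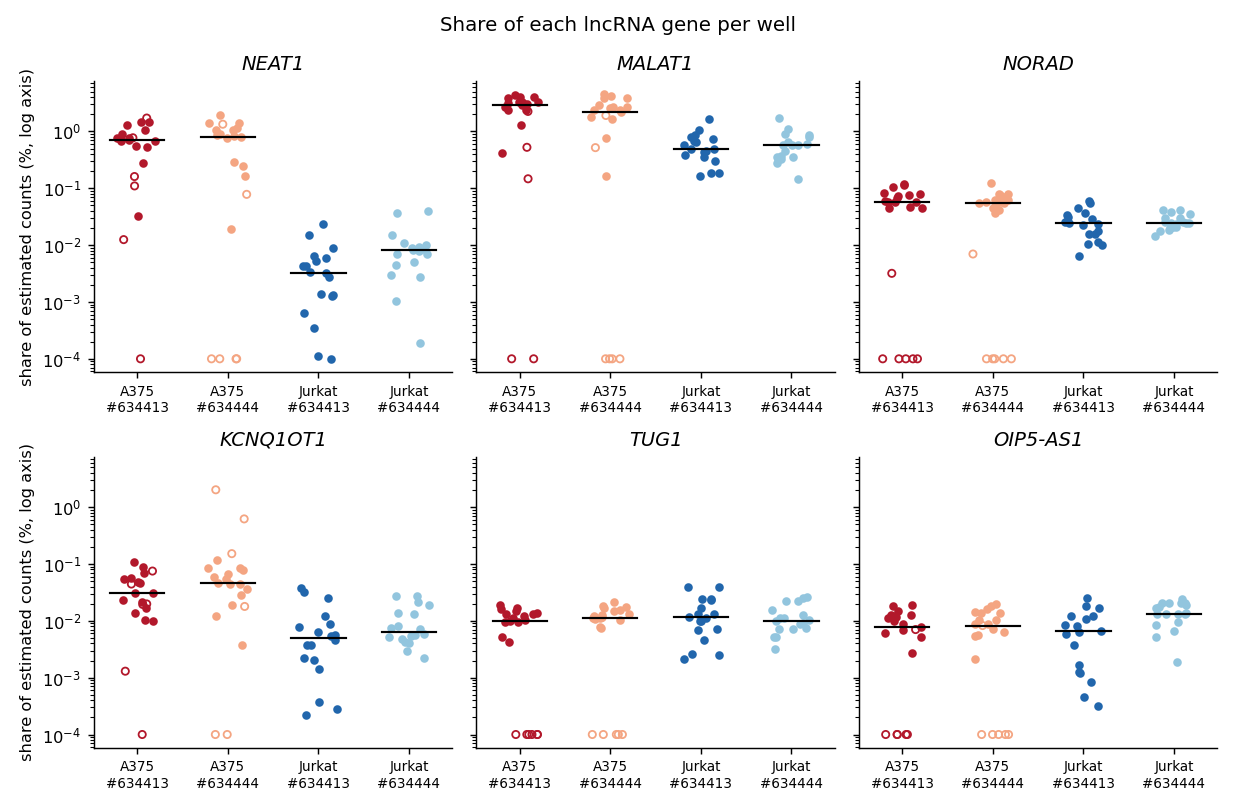
Share of estimated counts (in percent, log axis) of each lncRNA gene in every well of the 4 groups, with a black line at the median and open circles for wells below either limit. Values under 0.0001% are drawn at 0.0001%. NEAT1 in A375 (medians of 0.694% and 0.808%) stands above nearly all Jurkat wells (medians of 0.00328% and 0.00807%), while TUG1 and OIP5-AS1 overlap between the lines.

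Levels between genes were compared per length, as TPM, over wells with at least 25% of the median total. In A375, the order of mean TPM was MALAT1 (10324 ± 6285 with kit #634413, SD, n = 17, and 9672 ± 5886 with kit #634444, SD, n = 16), NEAT1 (354 ± 232 and 383 ± 228), NORAD (86 ± 44.8 and 78.5 ± 31.6), then TUG1 and OIP5-AS1, then KCNQ1OT1 (2.90 ± 2.37 and 4.29 ± 2.58). Neighbours in that order differed by more than their pooled SD with the exception of TUG1 and OIP5-AS1, which lay 0.559 and 9.78 TPM apart and changed places between the kits. In Jurkat, MALAT1 was first with 1291 ± 977 and 1518 ± 791 TPM (SD, n = 18) and KCNQ1OT1 last with 0.563 ± 0.722 and 0.658 ± 0.566 TPM. The 4 genes between them, at 14.2 to 35.5 TPM, did not differ from their neighbours beyond the spread between wells. Rank by TPM among lncRNA genes gave MALAT1 the first place in A375 and the second in Jurkat, and KCNQ1OT1 a place between 1156 and 2267.

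TPM of MALAT1 rested on short targets. The full target MALAT1-202 (8708 bases) held 91.8% and 91.5% of the MALAT1 counts in A375 and 93.7% and 93.7% in Jurkat, but 20.2%, 19.8%, 28.5% and 25% of the MALAT1 TPM. A target of 352 bases, MALAT1-216, held 4.89% of the counts and 58.1% of the TPM in A375 with kit #634413. The same targets enter the TPM of every other gene through its common total, so shares of counts are used below wherever a value is split between genes.

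The question of the next comparison was which genes differed between the cell lines, with each kit. Of 11170 genes tested with kit #634413, 12.4% were higher and 10.4% lower in A375, and of 12257 genes with kit #634444, 14.1% were higher and 16.2% lower (edgeR quasi-likelihood test, Benjamini-Hochberg adjusted p threshold of 0.05). All 6 members passed the count minimum in both fits. NEAT1, MALAT1 and KCNQ1OT1, 3 of the 6, were higher in A375 with both kits. None was lower: edgeR and DESeq2 called 0, and at an unadjusted p under 0.05 edgeR had 0 with either kit, and DESeq2 0 and 1. The median log2 fold change of all genes tested was -0.10 and -0.22 with TMM scaling, -0.16 and -0.07 with library size alone and -0.29 and -0.25 with DESeq2.

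NEAT1 was higher in A375 by 7.57 ± 0.74 on the log2 scale (fitted value ± SE, 190-fold, adjusted p = 2.16e-14 from edgeR) with kit #634413 and by 6.13 ± 0.82 (70-fold, adjusted p = 2.02e-09) with kit #634444. For MALAT1, the log2 fold change was 2.37 ± 0.52 (5.17-fold, adjusted p = 0.000167 from edgeR) with kit #634413 and 1.76 ± 0.68 (3.39-fold, adjusted p = 0.0385) with kit #634444. KCNQ1OT1 had log2 fold changes of 2.26 ± 0.53 (4.77-fold, adjusted p = 0.000569 from edgeR) and 2.35 ± 0.51 (5.11-fold, adjusted p = 0.000120), and with library size alone the value with kit #634444 was 3.77. NEAT1, MALAT1 and KCNQ1OT1 kept these directions and calls in the 7 alternatives run for each kit.

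NORAD, TUG1 and OIP5-AS1 did not pass the threshold over all wells. The log2 fold change of NORAD was 1.09 ± 0.50 (adjusted p = 0.114 from edgeR) and 0.84 ± 0.50 (adjusted p = 0.206). In wells above both limits, NORAD was higher in A375 with both kits, by 1.49 ± 0.25 (2.81-fold, adjusted p = 5.3e-06 from edgeR) and 1.32 ± 0.17 (2.49-fold, adjusted p = 3.68e-08). In these wells 14.4% and 19.8% of all genes tested were higher in A375 and 8.86% and 13.8% lower, and 4 of the 6 members were called, all higher in A375. For TUG1, the values over all wells were -0.58 ± 0.50 (95% interval from -1.57 to 0.41) and -0.14 ± 0.45 (from -1.02 to 0.73), and the second changed sign in 4 of 7 alternatives. OIP5-AS1 had 0.23 ± 0.55 (from -0.84 to 1.29) and -0.70 ± 0.45 (from -1.57 to 0.18).

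The next question was how much of the higher lncRNA share of A375 each member accounts for. With kit #634413, all lncRNA genes together held 6.67% ± 2.97 (SD, n = 21) of the counts of an A375 well against 2.18% ± 0.714 (SD, n = 18) of those of a Jurkat well, a difference of 4.49 percentage points, and the difference with kit #634444 was 5.79 points (two-sided permutation test, p = 1e-05 for each, the smallest that 100000 resamples can give). MALAT1 made up 1.83 ± 0.324 points (SE) with kit #634413 and 1.34 ± 0.335 points with kit #634444, or 40.8% and 23.1% of the difference. NEAT1 made up 0.694 ± 0.110 and 0.672 ± 0.129 points, or 15.5% and 11.6%. The 2 neighbours on chromosome 11 were thus the first and the second of all lncRNA genes by their part of the difference, with both kits.

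The other members held little of it. KCNQ1OT1 made up 0.0287 and 0.161 points, or 0.639% and 2.77% of the difference, and NORAD 0.0253 and 0.0188 points, or 0.564% and 0.324%. OIP5-AS1 made up 0.00364% and -0.108%, where a negative part is a gene with a lower share in A375. TUG1, outside the lncRNA class of GENCODE v44, would add -0.134% and -0.0372%. The 5 members in the class made up 57.5% and 37.7% of the difference. Without the 6 genes, the lncRNA share was still higher in A375, by 1.91 points with kit #634413 (two-sided permutation test, p = 0.000200) and 3.61 points with kit #634444 (p = 0.000480).

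Nearly empty A375 wells enter these parts. The 6 wells of 909 to 2373 counts held 11.1% to 23.7% of their counts on lncRNA genes but 0 or 1 count on NEAT1, 0 on MALAT1, NORAD, TUG1 and OIP5-AS1, and 28.2, 14.7 and 1 counts on KCNQ1OT1 in 3 of them. A count of 0 in these wells allows a share of 0.126% to 0.330%, below the usual A375 share of MALAT1 and NEAT1 and above that of the other 4 genes. Over wells above both limits, the lncRNA difference was 4.49 and 4.11 points, and MALAT1 made up 53.4% and 47.7% of it, NEAT1 17.6% and 20.7%, KCNQ1OT1 0.736% and 1.02%, and NORAD 1.02% and 0.889%. The 5 members in the class then held 72.8% and 70.2% of the difference, and the remainder was 1.22 points (two-sided permutation test, p = 1e-05) and 1.23 points (p = 3e-05). Leaving out any 1 well moved the part of MALAT1 over all wells from 39.5% to 47% (kit #634413) or from 21.1% to 28.6% (kit #634444), and that of NEAT1 from 14.6% to 17.5% or from 10.5% to 14.1%. For KCNQ1OT1 with kit #634444, the part lay between 1.23% and 3.11%, the lower value without the well of 1395 counts. The part of OIP5-AS1 with kit #634413 lay between -0.00884% and 0.0267%, so its sign turned on single wells. As parts of the TPM difference, the 5 members made up 17.6% and 10%.

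**Figure D2:**
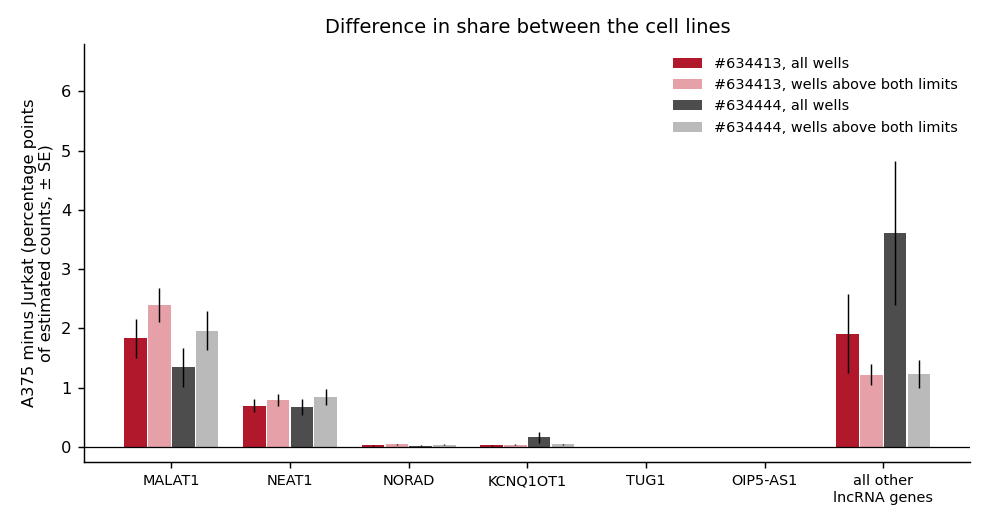
Difference in share of estimated counts between A375 and Jurkat (percentage points, bars from 0, ± SE) for each of the 6 genes and for all other lncRNA genes together, by kit, over all wells and over wells above both limits. MALAT1 (1.83 and 1.34 points over all wells) and NEAT1 (0.694 and 0.672 points) are the only single genes whose bars stand out from 0 at this scale, next to KCNQ1OT1 with kit #634444 over all wells.

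Of the other lncRNA genes, those with the largest parts differed between kits. With kit #634413, ENSG00000275389, ENSG00000277825 and ENSG00000283907 made up 6.66%, 3.62% and 2.95%, each with a median of 0% in A375 and its highest share in a well of 909 or 1331 counts. With kit #634444, HELLPAR, LINC02895 and ENSG00000236255 made up 2.66%, 1.79% and 1.52%, each highest in a well of 1613 or 2373 counts. ENSG00000274422, on chromosome 22, was high beyond those wells: its median A375 share was 0.0963% and 0.0746%, its mean Jurkat share 0.00423% and 0.00509%, and its part 2.28% and 1.78%. ENSG00000259001, on chromosome 14, was lower in A375 and counted against the difference, with parts of -2.26% and -3.88%. None of these came near MALAT1 or NEAT1 in wells with at least 25% of the median total, where their differences were 2.19 and 1.92 points for MALAT1, 0.741 and 0.880 points for NEAT1, and from -0.189 to 0.137 points for these 8 genes.

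A375 wells with little protein coding RNA split the members. Of the A375 wells with at least 3000 counts, 4 with kit #634413 and 2 with kit #634444 had protein coding shares of 4.84% to 44.4%, nuclear rRNA shares of 27.5% to 59.6% and 6.70% to 34.1% of counts on nuclear copies of mitochondrial genes. NORAD was at 0 in 4 of these 6 wells and at 4.69% and 12.1% of the median of the wells above 50% in the other 2. OIP5-AS1 was at 0 in the same 4 wells, and at 63.2% and 80.7% of its median in the other 2. TUG1 was at 0 in all of them but the well with a protein coding share of 44.4%, where it was at 88.6%. NEAT1 reached 246% of that median in a well with a protein coding share of 20.2%, 155% in another with 44.4%, and 110% in 1 with 10.5%, where MALAT1 was at 70.2%, NORAD at 0 and TUG1 at 0. In the 3 wells with the lowest protein coding shares, 4.84% to 6.90%, NEAT1 lay at 1.79% to 22.9% and MALAT1 at 4.57% to 20.2%. KCNQ1OT1 spanned 4.13% to 333% over the 6 wells. Whether the state of the cells or the handling of the wells had a part in this was not tested.

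Other wells showed the opposite pattern. Among A375 wells above 50% protein coding counts, the 2 with the lowest NEAT1 shares per kit had 0.0321% and 0.284% with kit #634413 and 0.0193% and 0.167% with kit #634444. MALAT1 was low in the same 4 wells, at 0.162% to 1.3%. KCNQ1OT1 was low as well, at 0.0138% and 0.0105% with kit #634413 and at 0.00380% and 0.0122%, the lowest of these wells, with kit #634444. TUG1 was at 0.0105% and 0.0133%, inside the range of the remaining wells, with kit #634413, and at 0.00735% and 0.00790%, below that range, with kit #634444. NORAD, at 0.0554% to 0.105%, lay within the range of the remaining wells with both kits, and the totals were 473121 to 1261998 counts.

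**Figure D3:**
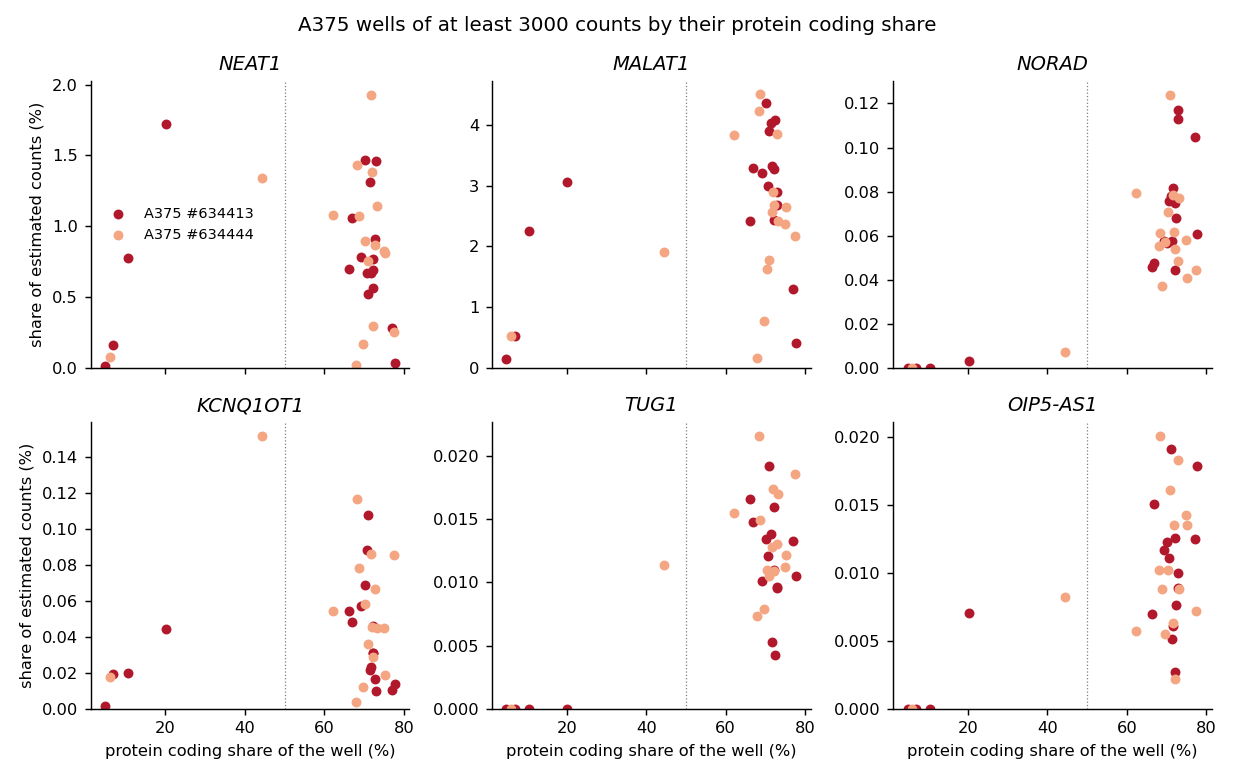
Share of estimated counts (percent) of each of the 6 genes against the protein coding share (percent) of the well, for A375 wells of at least 3000 counts, with a dotted line at 50%. Left of the line, NORAD lies at 0 or near it in 6 of 6 wells, while NEAT1 reaches 1.72% in a well with a protein coding share of 20.2%. TUG1 and OIP5-AS1 also lie at 0 in most of these wells.

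Across wells of a group, NEAT1 and MALAT1 had positive rank correlations in A375. In wells above both limits, Spearman's rho between their shares was 0.45 (n = 15) and 0.61 (n = 15) in A375 and 0.03 (n = 18) and 0.31 (n = 18) in Jurkat, where NEAT1 rests on few counts. The rho of 0.45 leaned on 2 wells with the lowest shares of both genes. These held 0.0321% and 0.284% of counts on NEAT1 and 0.414% and 1.30% on MALAT1. Between MALAT1 and NORAD, rho was -0.24 and -0.20 in A375 and 0.27 and -0.28 in Jurkat. KCNQ1OT1 and TUG1 had rho of 0.48 and 0.74 in A375 and -0.18 and -0.04 in Jurkat. These values are descriptions, since both genes of a point share a library and a common total.

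**Figure D4:**
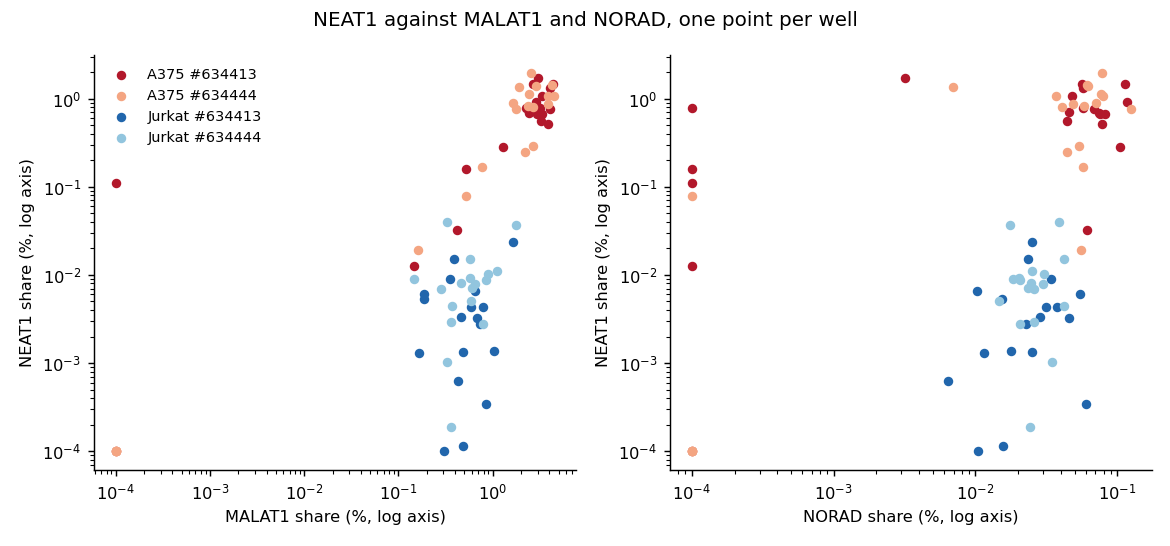
NEAT1 share against the MALAT1 share (left) and the NORAD share (right) of each well, both in percent on log axes, with values under 0.0001% drawn at 0.0001% and the 4 groups in separate colors. In A375 wells above both limits, rho between NEAT1 and MALAT1 is 0.45 and 0.61, the first leaning on 2 wells low in both genes. Jurkat wells have NEAT1 at 0.0396% or less.

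By a rule of likeness over all 4 groups, the genes closest to each member were sought among 4936 genes with a mean of at least 20 CPM (counts of a gene scaled to the same total in every well) in every group, by the mean of the 4 within-group Spearman correlations over wells with at least 25% of the median total. For NEAT1, these were 3 lncRNA genes, GARS1-DT (0.54), OLMALINC (0.51) and LINC02895 (0.51). MALAT1 was closest to HMGB2 (0.51), NKTR (0.50) and CCDC14 (0.49), NORAD to JMY (0.49), MYL6 (0.48) and BRWD3 (0.46), and KCNQ1OT1 to the lncRNA UGDH-AS1 (0.52), TMEM45A (0.50) and PIGN (0.48). For TUG1 they were RNF169, VPS13C and ENOSF1 (0.45 to 0.46), and OIP5-AS1 was close to DDX50 (0.46) and TPR (0.45). None of the 6 members was among the closest genes of another. Being picked as the highest of 4936 genes raises these values by itself, and they were not tested. They also varied between groups, as from 0.16 to 0.74 for MALAT1 with HMGB2 and from 0.07 to 0.79 for NORAD with MYL6.

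NEAT1 comes in a long form, which builds paraspeckles, and shorter ones, and the targets differ in length accordingly. The target NEAT1-202 of 22743 bases stood for the long form, and no target covered only the unspliced short form, so counts from the shared first part can fall to the long target. In wells with at least 10 NEAT1 counts and kit #634413, the long target held 93.8% ± 14.5 (SD, n = 19) of the NEAT1 counts of A375 wells against 63.1% ± 35.3 (SD, n = 14) in Jurkat. With kit #634444, it held 97.4% ± 3.25 (SD, n = 17) against 59.2% ± 29.5 (SD, n = 17). The lowest, median and highest A375 wells were at 44.6%, 98.9% and 100% with kit #634413 and at 86.9%, 98.4% and 99.9% with kit #634444. The Jurkat wells spread from 11.4% over 59.4% to 100% and from 3.35% over 57.4% to 100%. The groups thus overlapped, with 4 and 2 Jurkat wells above the A375 median.

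The difference in the long share was 30.7 percentage points with kit #634413 (two-sided permutation test, p = 0.00210) and 38.1 points with kit #634444 (p = 2e-05). In wells with at least 50 NEAT1 counts, it was 50.6 points over 18 A375 and 4 Jurkat wells (permutation test, p = 0.000130) and 35.5 points over 17 and 9 wells (p = 1e-05). As a share of NEAT1 TPM, the difference was 24.6 points with kit #634413 and did not pass 0.05 (permutation test, p = 0.0604). With kit #634444, it was 46.9 points (permutation test, p = 6e-05). The Jurkat wells in this comparison held 10 to 224 NEAT1 counts, and after pooling them the long share was 61.2% and 67.7%, against 98.9% and 98.6% in A375. The spliced target NEAT1-201 of 1811 bases held 27.9% and 18.5% of the pooled NEAT1 counts of all Jurkat wells and 0.638% and 1.15% of those of the A375 wells with at least 25% of the median total.

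**Figure D5:**
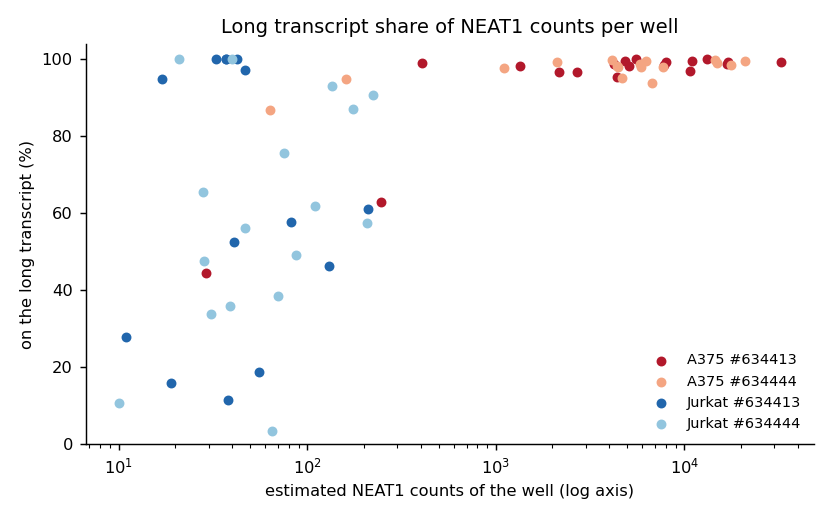
Share of NEAT1 counts on the long target (percent) against the NEAT1 counts of the well (log axis), for wells with at least 10 NEAT1 counts in the 4 groups. Most A375 wells lie to the right and near the top (medians of 98.9% and 98.4%), and Jurkat wells, none with more than 224 counts, spread from 3.35% to 100%.

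The kits were then compared within each line, as the study set both reagent kits side by side. Of all genes tested, 0.0744% (9 of 12095) were called in A375 and 0.0377% (4 of 10624) in Jurkat, and 0 of 6 members were called in either line by edgeR. At an unadjusted p under 0.05, edgeR with TMM had 0 members in A375 and 1 in Jurkat, OIP5-AS1, and DESeq2 called 0 in both lines, with the adjusted p of 4 members not given in Jurkat. OIP5-AS1 was at 0.87 ± 0.42 on the log2 scale in Jurkat (kit #634444 over kit #634413, unadjusted p = 0.0443, adjusted p = 1.0 from edgeR). KCNQ1OT1 in A375 was at 0.39 ± 0.52, and at 2.19 ± 0.63 with library size alone (4.57-fold, unadjusted p = 0.000915, adjusted p = 0.308 from edgeR). In wells above both limits it was at 0.30 ± 0.34. The 95% interval of MALAT1 ran from -2.06 to 1.08 in A375 and was narrower in Jurkat, from -0.41 to 0.56. That of NEAT1 ran from -1.73 to 1.14 in A375, and in Jurkat from 0.02 to 2.18 with an unadjusted p = 0.0513 from edgeR. NORAD had the narrowest interval in Jurkat, from -0.48 to 0.48.

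Whether the difference between the lines depended on the kit was tested as an interaction in 1 fit of the 4 groups. Of 11609 genes, 1.39% were called, and 0 of 6 members by edgeR, with 0 at an unadjusted p under 0.05. DESeq2 was not run for it. For NEAT1, the log2 interaction was -1.30 ± 0.87 (95% interval from -3.00 to 0.41, adjusted p = 1.0 from edgeR), and for MALAT1 -0.50 ± 0.81 (from -2.08 to 1.09). The intervals of the other 4 genes lay between -2.18 and 1.83.

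Wells carry index numbers, and the study pooled wells in sets of 8 without naming them. Means over blocks of 8 neighbouring index numbers, in wells with at least 25% of the median total, spanned 0.620% to 1.11% for NEAT1 in the 6 A375 blocks against 0.00149% to 0.0123% in the 6 Jurkat blocks. For MALAT1, they spanned 1.99% to 3.15% in A375 against 0.451% to 0.775% in Jurkat. KCNQ1OT1 spanned 0.0280% to 0.0633% in A375 against 0.00553% to 0.0163% in Jurkat, and NORAD 0.0433% to 0.0715% against 0.0237% to 0.0279%. For these 4 genes the blocks of the lines did not overlap, and each block holds 1 line and 1 kit, so pool and line cannot be told apart.

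The genes of proteins that work with the members were read from the same fits, as RNA, since protein was not measured. Of 16 paraspeckle protein genes tested, 0 were higher and 3 lower in A375 with each kit by edgeR. At an unadjusted p under 0.05, 4 and 6 were lower and 0 higher. Beside them, 12.4% and 14.1% of all genes were higher and 10.4% and 16.2% lower. The list median was -0.64 and -0.73 against -0.10 and -0.22 for all genes. SMARCA4, a chromatin remodeller found in paraspeckles, had 329 ± 216 CPM in A375 and 1124 ± 389 in Jurkat with kit #634413 (log2 fold change -1.53 ± 0.41, adjusted p = 0.00258 from edgeR), and HNRNPH3, an RNA binding protein, was lower with both kits. SFPQ, a core protein that binds NEAT1, had 565 ± 311 and 1121 ± 382 CPM with kit #634413 (adjusted p = 0.245). In wells above both limits, 0 were higher and 6 and 5 lower, beside 14.4% and 19.8% of all genes higher and 8.86% and 13.8% lower, and the list median was -0.33 and -0.32 against 0.10 and 0.10. With library size alone 4 and 7 were lower, and with DESeq2 7 and 7.

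Of 18 nuclear speckle protein genes, 0 were higher and 2 and 5 lower in A375 by edgeR (0 higher, 7 and 10 lower at an unadjusted p under 0.05), beside 10.4% and 16.2% of all genes lower and 12.4% and 14.1% higher. The list medians were -0.83 and -1.0, against -0.10 and -0.22 for all genes. SRSF5, a splicing factor, was lower with both kits, at 116 ± 76.8 and 316 ± 146 CPM with kit #634413 (log2 fold change -1.25 ± 0.44, adjusted p = 0.0294 from edgeR). PNN, which helps to assemble speckles, had 146 ± 105 and 467 ± 152 CPM with kit #634444 (-1.48 ± 0.46, adjusted p = 0.00805). The number lower in A375 rose to 8 and 10 in wells above both limits, to 6 and 11 with library size alone and to 10 and 11 with DESeq2, and 0 were higher in each. Of the RNase P subunits, RPP25 was higher with kit #634413 among 9 tested and 0 of 10 were called by edgeR with kit #634444, where 3 had an unadjusted p under 0.05 and DESeq2 called 2 lower. RPP25 had 21.8 ± 27.1 and 4.54 ± 13.6 CPM and was not called in wells above both limits, with library size alone or with DESeq2.

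Around KCNQ1OT1, 4 of 7 imprinted domain genes could be tested. PHLDA2, a growth restraining gene expressed from the maternal copy, had 22.7 ± 28.9 and 21.3 ± 21.9 CPM in A375 and was listed at 0 in all 36 Jurkat wells (adjusted p = 3.63e-07 and 2.54e-08 from edgeR). CDKN1C, a cell cycle inhibitor, was under the count minimum, with 6.32 ± 13.9 and 10.2 ± 18.7 CPM in A375 and 2.64 ± 11.2 and 0.228 ± 0.966 in Jurkat. KCNQ1 itself, through which KCNQ1OT1 runs on the other strand, was at 0 in all wells. NAP1L4, a histone chaperone gene, was lower in A375 with kit #634444 (60 ± 55.8 and 174 ± 69.6 CPM, log2 fold change -1.40 ± 0.44, adjusted p = 0.00972 from edgeR). CD81 was lower in A375 with both kits, in wells above both limits only with kit #634413, and its protein was the antigen of the antibody used in the Jurkat sort.

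Of 6 genes near TUG1 or OIP5-AS1 or bound to the latter, ELAVL1 and NUSAP1 were lower in A375 with both kits. Beside them, 10.4% and 16.2% of all genes were lower and 12.4% and 14.1% higher. The list median was -0.31 and -0.70, against -0.10 and -0.22 for all genes. In wells above both limits, it was 0.01 and -0.27, against 0.10 and 0.10. ELAVL1 encodes HuR, an RNA binding protein reported to bind OIP5-AS1, and had 46.3 ± 36.2 and 130 ± 68.9 CPM with kit #634413 (log2 fold change -1.26 ± 0.48, adjusted p = 0.0464 from edgeR). NUSAP1, a spindle protein gene beside OIP5-AS1, had 18.8 ± 25 and 117 ± 125 (-2.36 ± 0.69, adjusted p = 0.00667). OIP5, which OIP5-AS1 overlaps on the opposite strand, was lower with kit #634444, at 4.32 ± 7.14 and 21.4 ± 19.9 (-2.05 ± 0.78, adjusted p = 0.0371), and was not called in wells above both limits. SMTN, a smooth muscle cytoskeleton gene, was called higher with kit #634413, at 24.6 ± 29.2 and 2.57 ± 6.39 CPM (3.76 ± 1.05, adjusted p = 0.00397).

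Among 22 other well known lncRNA genes, 6 of 16 tested were higher and 0 lower in A375 with kit #634413, and 6 of 17 higher and 2 lower with kit #634444, beside 12.4% and 14.1% of all genes higher and 10.4% and 16.2% lower. GAS5, a snoRNA host, had 206 ± 148 and 53.5 ± 52.3 CPM with kit #634413 (log2 fold change 2.17 ± 0.51, adjusted p = 0.000466 from edgeR). LINC-PINT had 103 ± 93.7 and 0.172 ± 0.403 (8.66 ± 0.83, adjusted p = 1.12e-14), and LINC00511 73.4 ± 61.4 and 1.95 ± 7.40 (6.13 ± 0.88, adjusted p = 2.05e-08). FTX and JPX were higher with both kits as well. DANCR and DLEU2 were lower in A375 with kit #634444, at 11.9 ± 14 and 52.1 ± 47.5 and at 3.34 ± 4.76 and 32.2 ± 31.8 CPM. The list median was 0.94 and 0.91, against -0.10 and -0.22 for all genes. None of these genes came near the levels of MALAT1: the mean of GAS5 in A375 was 206 and 352 CPM, against a mean MALAT1 share of 2.41% and 1.95% of counts.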

How the data were processed

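Single cell total RNA libraries of A375 and Jurkat wells were sequenced paired-end in 1 pooled run. For each well, the authors deposited expected counts without any normalization, as Kallisto estimates them. The TPM that the authors deposited beside them were computed by Kallisto from the same counts and the effective lengths. Reads were trimmed with cutadapt and assigned with Kallisto 0.43.1, in stranded mode, to Ensembl 91 transcripts with spike sequences, so the strand keeps antisense genes apart. The submitters' processing notes also name STAR 2.5.3 and hg38.

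Targets were summed to genes with GENCODE 44, whose gene classes and GRCh38 sequences were used. A share is a gene's percent of a well's estimated counts, spikes left out, and the floor was 3 counts. For tests across genes, sums were rounded and spikes and the rDNA unit left out. edgeR 4.0.16 (R 4.3.3, limma 3.58.1) with glmQLFit, glmQLFTest and TMM was run on genes that reached 5 counts in 25% or more of a fit's wells, with Benjamini-Hochberg adjustment over all genes tested and a threshold of 0.05. The approximate 95% intervals of log2 fold changes come from the standard errors. Shares of all lncRNA genes and of the long NEAT1 target were tested with two-sided permutation tests of 100000 resamples. No pooled sets are named in the labels. The fit was tested on simulated data at the sizes of both line comparisons. With kit #634413, it recovered 34 of 100 changes of 4-fold and 85 of 100 of 16-fold. The 9 false calls among 8999 genes were 7.03% of all calls. With kit #634444, it recovered 70 and 99 of 100, and the 6 false calls among 10052 genes were 3.43% of all calls. Both simulated arms took their means and spread from Jurkat wells, and only genes well counted there were changed. The spread among A375 wells, apart from depth, was thus not covered.

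The members and lists were chosen with earlier results of these data known. The genes named are the members, the 5 other lncRNA genes with the largest parts per kit, the 3 most alike genes per member, and the lists. Of these, 1 alike gene and 1 list are not reported here. DESeq2 1.42.0, other scalings, filters, denominators, TPM, wells and blocks were alternatives. The limit of 50% protein coding counts, the interaction over subsets of wells, library size alone for the kits, and TUG1 in the lncRNA class were added after seeing the data. Figures and tables were made in Python 3.11.15 (pandas 2.3.3, numpy 2.4.6, scipy 1.17.1, matplotlib 3.10.9).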

Additional observations from a re-analysis of the deposited data

How the results depend on the processing

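No paired analysis was possible because the wells share no replicate numbers that tie A375 to Jurkat or the kits to each other. The lncRNA share, its remainder and the shares of NEAT1, MALAT1 and KCNQ1OT1 stayed higher in A375 in every alternative run. With TPM, the share differences were 0.0346 and 0.0260 points for NEAT1 (kits #634413 and #634444), 0.745 for MALAT1, 0.000282 for KCNQ1OT1 and -0.000612 for OIP5-AS1 (kit #634413), and 1.86e-06 for TUG1 (kit #634444), the last 2 with changed sign. Leaving rRNA and copies of mitochondrial genes out of the total gave 1.10 points for NEAT1 and 0.0530 for KCNQ1OT1 with kit #634413. Without single index blocks, OIP5-AS1 with kit #634413 lay between -0.00141 and 0.00200, with values below 0 of -9.73e-05, -0.000619 and -0.00141, and the lncRNA remainder between 0.935 and 2.69. TUG1 with kit #634444 was 0.00102 in wells with 25% of the median total and 0.00115 in those above both limits. The difference in the long NEAT1 share by TPM was 24.6 points with kit #634413 and 46.9 with kit #634444. The cause of these shifts was not tested.

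Without the count filter, 7558 and 9127 genes were called between lines and 1923 and 1462 between kits (A375, Jurkat). Of the calls between lines on simulated data, 38.7% and 19.6% were false without that filter, against 7.03% and 3.43% with it. The simulated data held only genes that had passed that filter in the real data. Between kits in A375, 1 gene was called in wells with 25% of the median total and 2 above both limits, and DESeq2 called 26 in Jurkat. Higher and lower calls between lines were 1390 and 1164 (kit #634413) and 1730 and 1981 (kit #634444), and 1667 and 1029 and 2494 and 1736 above both limits. The log2 fold change of TUG1 with kit #634444 was 0.01 with library size alone, 0.15 over block sums, 0.31 in wells with 25% of the median total and 0.22 above both limits. Between kits in A375, NEAT1 was 0.15 and 0.11 in these 2 sets of wells, and in Jurkat DESeq2 gave -0.02 for MALAT1 and -0.10 for NORAD. NORAD between lines passed the threshold in 3 and 4 of 7 alternatives. Depth limits TUG1 and OIP5-AS1, with medians of 41.4 to 115 counts per well, and NEAT1 in Jurkat.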
